A study of Mus musculus with 26 samples.

Results

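The genes described here are 36 listed mouse genes of the lysosome, out of 49997 RefSeq genes with a span on the mouse assembly GRCm38.p6 (mm10). They are 10 genes of the cathepsin group (legumain among them), 9 other hydrolases, activators and luminal proteins, 8 membrane proteins, 7 genes of the proton pump, and the transcription factors Tfeb and Tfe3. They were listed by name, with earlier results of these data known. For each gene and each library, the normalized tags of every called peak that touched the gene span plus 1000 bp on either side were added up. The cells were RAW264.7, an established mouse macrophage line, in the form of 2 stable lines in which doxycycline switches on either HA-tagged Nur77 or GFP. All libraries came from cells given 50 ng/ml doxycycline for 18 h, so the GFP line had received doxycycline as well. The cells were then left untreated (0 h) or given 500 ng/ml lipopolysaccharide (LPS) for 1 h. RNA polymerase (Pol II) and H3K27ac, an acetylation of histone H3 found at active promoters and enhancers, were measured in 4 groups of 2 libraries each: the GFP line untreated, the GFP line with LPS, the HA-Nur77 line untreated and the HA-Nur77 line with LPS. HA, the tag on Nur77, was measured only in the HA-Nur77 line, in 3 untreated and 3 LPS libraries, after crosslinking with 2 mM DSG and 1% formaldehyde; the other chromatin had formaldehyde alone. The labels do not say whether a line was 1 clone or a pool, nor whether replicates were separate cultures.

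Lysosomes are acidic compartments in which hydrolases digest proteins, lipids, sugars and nucleic acids. The V-type ATPase pumps protons into them, LAMP proteins line their membrane, and channels and transporters export ions, sterols and digestion products. TFEB and TFE3 are basic helix-loop-helix transcription factors that switch on lysosomal genes through E-box elements of the CLEAR type when nutrients are scarce, and macrophages rely on the pathway to digest what they engulf. Nur77, encoded by Nr4a1, is an orphan nuclear receptor that binds the NBRE, a half-site preceded by A bases.

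The promoters were read from the RefSeq table of GRCm38.p6, which covers 250 bases before to 50 after each listed start. It held 38 entries for 30 of the 36 genes, among 32851 entries in all. Both strands were searched for the E-box CACGTG, which is also the centre of the longer palindrome TCACGTGA. CACGTG stood in 11 of the 38 entries (28.9%) against 7.15% of all entries. TCACGTGA stood in 6 (15.8%) against 0.974% of all. These 6 are shown because they hold the full palindrome, with 20 bases on each side, read 5′ to 3′ on the gene's strand. Capitals mark the first match in each promoter; a second match in Ctsa stands in lower case near the end of its window, and that of Gla lies beyond its window.
Atp6v0d1: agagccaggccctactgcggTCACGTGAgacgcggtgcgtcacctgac
Atp6v1a: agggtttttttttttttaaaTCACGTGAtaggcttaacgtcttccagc
Ctsa: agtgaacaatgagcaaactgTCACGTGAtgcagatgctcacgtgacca
Ctsd: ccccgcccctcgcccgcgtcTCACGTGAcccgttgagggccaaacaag
Gla: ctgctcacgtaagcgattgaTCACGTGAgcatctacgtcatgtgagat
Mcoln1: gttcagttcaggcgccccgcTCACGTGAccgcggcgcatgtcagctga

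Positions are counted from the listed start as 0, with upstream bases negative. The window of Atp6v0d1, a subunit of the membrane part of the pump, lies at chr8:105566041-105566088 (minus strand), and its palindrome covers -4 to 3, across the listed start itself. That of Atp6v1a, the catalytic subunit, lies at chr16:44139364-44139411 (minus strand), with the palindrome at -132 to -125. The window of Ctsa, the protective protein of beta-galactosidase, lies at chr2:164833740-164833787 (plus strand), with the palindrome at -13 to -6. Ctsd, an aspartic protease, has its window at chr7:142387899-142387946 (minus strand), with the palindrome at -99 to -92. Gla, alpha-galactosidase, has its window at chrX:134601206-134601253 (minus strand), with the palindrome at -228 to -221. Mcoln1, the lysosomal calcium channel, has its window at chr8:3500453-3500500 (plus strand), with the palindrome at -46 to -39. The same motif stands at the promoters of proton pump, hydrolase and channel genes alike. Of the other motifs, the half-site AGGTCA stood in 13.2% of the members' entries and 16.3% of all, the NBRE AAAGGTCA in 0 of 38 and 1.51% of all, and the AP-1 motif TGANTCA in 13.2% (Cd68, Glb1, Gpnmb, Psap and Tfe3) and 7.81% of all. A match describes these letters only.

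Mapped tags per library ranged from 6.41 to 18.2 M for HA, from 11.9 to 23.1 M for Pol II and from 22.3 to 28.4 M for H3K27ac. The libraries held 19684 to 28680, 27137 to 33796 and 46300 to 51504 peaks. Both HA replicate 3 libraries stood apart, with peaks of 342 and 427 bp against 826 to 1017 bp in the others, and 3 H3K27ac libraries (replicate 1 of the GFP line untreated, of the GFP line with LPS and of the HA-Nur77 line untreated) were called with a local filter that the other 5 lacked. Of the Pol II libraries, untreated replicate 1 of the HA-Nur77 line had the fewest peaks (27137) and an estimated fragment length of 1550 bp, against 174 to 318 bp in the other 7. Counts of calls that rest on these libraries are also given without them. Of the LPS-response genes set as a check, Tnf, Cxcl2, Nfkbia and Ptgs2 gained Pol II in both lines by 2.55 to 4.71 on the log2 scale. Il1b, also on that list, is not reported here. Pol II over Nr4a1, the gene of Nur77, differed between the lines by 0.40 untreated (limma, adjusted p = 0.801) and 0.30 with LPS (adjusted p = 0.703). All 6 macrophage markers (Spi1, Csf1r, Cd14, Lyz2, Itgam and Adgre1) had Pol II and H3K27ac peaks. Among markers of other cell types, Cd3e, Col1a1, Epcam, Alb and Myh6 had no Pol II peak in any group, Pecam1 had group means of 0 to 16.8 tags and Gfap of 62.2 to 244.

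All 35 members other than Ctsh, cathepsin H, had a Pol II peak in all 8 libraries, and the same 35 had H3K27ac in all 8. Ctsh had no Pol II or HA peak, and 1 H3K27ac peak of 4.93 tags in 1 untreated library of the HA-Nur77 line. For HA, 17 members had a peak in all 6 libraries and 18 in some of them. Only members with a peak in every library of a target were tested. Per kb of gene span, Pol II in the untreated GFP line was highest over Cd68, a LAMP-family protein of macrophages, at 433 ± 23.4 normalized tags per kb (SD, n = 2). Ctsd followed at 302 ± 206, Grn (progranulin) at 289 ± 125, Gpnmb (a transmembrane glycoprotein) at 277 ± 142 and Atp6v0c (the proton-carrying ring of the pump) at 167 ± 18.3. The SDs of Ctsd, Grn and Gpnmb exceed the gaps between them, so their order is not resolved. The lowest 5 were Atp6v1h at 2.76 ± 0.37, Gaa at 4.12 ± 2.64, Lamp2 at 4.83 ± 0.256, Glb1 at 5.67 ± 0.0566 and Atp6v0d1 at 7.07 ± 1.47. H3K27ac per kb of span was highest over Cd68 (176 ± 2.62), Atp6v0c (173 ± 13.8), Ctsb (133 ± 6.79), Grn (130 ± 11.1) and Ctsd (129 ± 11.5), and lowest over Atp6v1h, Glb1, Ctsc, Gaa and Lamp2, at 4.04 to 6.62.

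A peak's tags went to every gene it touched. Of the members with a peak, 23 of 35 shared at least 1 Pol II peak with a protein-coding neighbour, 21 of 36 an H3K27ac peak and 9 of 35 an HA peak. Cd68, the gene with the highest level, is 1.96 kb long, and 79.4% of the length of its Pol II peaks lay outside its span, over Mpdu1, Eif4a1, Senp3 and others. The peaks of Lipa, Atp6v0d2, Ctsc, Laptm5 and Atp6v1h touched no other protein-coding gene. Regions called in input chromatin overlapped Pol II peaks of 18 members and H3K27ac peaks of 19. Among the genes with the highest Pol II levels, every peak of Cd68, Ctsd, Grn and Gpnmb touched such a region, and none of Atp6v0c did. For Ctsb 76.9% of the Pol II peaks did. Every H3K27ac peak of Cd68 and Ctsb touched one, against 71.4% for Ctsd, 66.7% for Grn and none for Atp6v0c. With ChIP of a bulk culture, more cells carrying a signal and more signal per cell cannot be told apart.

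After 1 h of LPS, Pol II moved in opposite directions over different lysosomal genes: it rose over the cathepsins Ctsb and Ctsz in both lines, and fell over Lgmn, Lipa and Atp6v0d2 in both. In the GFP line 3 of 35 tested members were higher (Ctsb, Ctsc, Ctsz) and 3 lower (Lgmn, Lipa, Atp6v0d2), and the median log2 change was 0.04. The called share was 17.1%, against 14.9% of all 15654 genes tested (limma on log2 of scaled tags, Benjamini-Hochberg FDR 0.05), which is near that background. In the HA-Nur77 line 3 were higher (Ctsb, Ctsz, Cd68) and 6 lower (Lgmn, Lipa, Psap, Glb1, Atp6v0d2, Tfeb), with a median of 0.33. Here the called share was 25.7% against 26.3% of all genes. With the replicate number as a block, which 2 shared numbers cannot show to pair the libraries, 12 members were called in the GFP line and 16 in the HA-Nur77 line. Calls over all 15654 genes rose too, from 2340 to 4243 and from 4114 to 6286. The members added were Atp6v1h, Cd63, Cd68, Ctsl, Psap and Tfeb in the GFP line. In the HA-Nur77 line they were Atp6v1h, Ctsc, Ctsl, Gusb, Lamp2, Laptm5 and Tfe3. Without scaling between libraries the counts were 1 higher and 3 lower in the GFP line and 2 and 8 in the HA-Nur77 line; over all genes, 1266 higher and 1074 lower became 921 and 1258 in the GFP line, and 1989 and 2125 became 1036 and 3546 in the HA-Nur77 line.

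**Figure D1:**
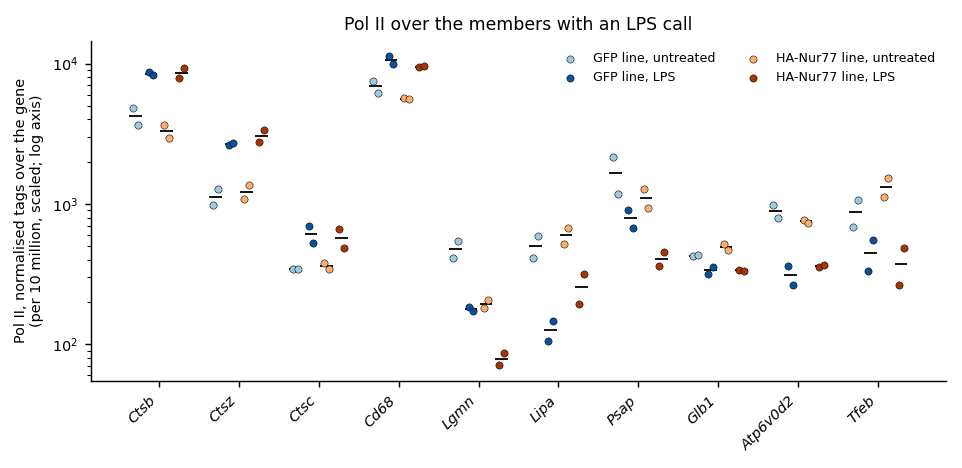
Scaled normalized Pol II tags (log axis) over the 10 members with an LPS call in either line, 1 point per library and a bar at each group mean. Ctsb and Ctsz are higher in both LPS groups and Lgmn, Lipa and Atp6v0d2 lower in both, with no overlap between untreated and LPS libraries of the same line; over Ctsb the GFP line went from 4803 and 3659 to 8722 and 8231.

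Among the cathepsins, Ctsb, a cysteine protease (chr14:63122462-63145923), held 4803 and 3659 scaled Pol II tags in the untreated GFP line and 8722 and 8231 with LPS. The HA-Nur77 line held 3626 and 2952 untreated and 7902 and 9335 with LPS. Every LPS library was above every untreated one. The fold was 2.02 in the GFP line (log2 1.01 ± 0.22 SE, limma adjusted p = 0.0282) and 2.63 in the HA-Nur77 line (1.39 ± 0.22, adjusted p = 0.0064). The length covered by its peaks, 27.2 to 28.2 kb in the GFP line, hardly moved, and tags per kb of peak went from 153 to 308 there (density change 1.04, adjusted p = 0.0431) and from 144 to 311 in the HA-Nur77 line. Its peaks also touched Fdft1. Leaving out untreated replicate 2 or either LPS replicate of the GFP line, or either untreated replicate of the HA-Nur77 line, ended the call in the GFP line, and untreated replicate 2 ended it in the HA-Nur77 line.

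Ctsz, a carboxypeptidase (chr2:174427494-174439039), held 980 and 1277 tags in the untreated GFP line, and 2632 and 2737 with LPS. For the HA-Nur77 line the values were 1076 and 1367 untreated, and 2766 and 3364 with LPS. Again no LPS library reached down to an untreated one. The fold was 2.40 (log2 1.26 ± 0.21, adjusted p = 0.0117) and 2.51 (1.33 ± 0.21, adjusted p = 0.0062). Its covered length grew with LPS, from 12.9 and 14.1 kb to 18.8 and 17.2 kb in the GFP line, and the change in tags per kb of peak was 0.86 (adjusted p = 0.0522) and 0.60 (adjusted p = 0.114). The call in the GFP line was lost without untreated or LPS replicate 1 of that line, and in the HA-Nur77 line it held in all 8 refits that left out 1 library.

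Ctsc, the dipeptidyl peptidase that activates serine proteases, was called only in the GFP line, from 344.5 and 345.5 tags to 694 and 523 (log2 0.80 ± 0.21, adjusted p = 0.0495). Its peaks lengthened from 3.75 and 2.83 kb to 7.98 and 4.29 kb, tags per kb of peak changed by -0.02, and the call was kept in 2 of 8 refits. In the HA-Nur77 line its change was 0.65 (adjusted p = 0.0639). Lgmn, legumain, an asparaginyl endopeptidase that processes cathepsins (chr12:102394082-102439728), went the other way. It fell from 409 and 548 tags to 183.5 and 173 in the GFP line, and from 183 and 207 to 70.7 and 86.3 in the HA-Nur77 line. The LPS libraries lay below the untreated ones in each line, and the untreated HA-Nur77 libraries were close to the GFP line with LPS. The fold was 0.378 (log2 -1.40 ± 0.21, adjusted p = 0.0084) and 0.405 (-1.31 ± 0.21, adjusted p = 0.0066). The covered length fell with it, from 10.3 and 9.77 kb to 3.90 and 5.12 kb in the GFP line, and tags per kb of peak went from 47.9 to 40.5. Its call was lost once, in the HA-Nur77 line without untreated replicate 2 (adjusted p = 0.0518). The other cathepsins were not called; of these Ctsd had the highest level, with changes of -0.90 (adjusted p = 0.287) and -0.33 (adjusted p = 0.664), and its GFP untreated libraries held 15910 and 5739 tags. Ctsa changed by -0.68 in the GFP line (adjusted p = 0.127).

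Among the other hydrolases and luminal proteins, Lipa, the acid lipase that frees cholesterol from its esters (chr19:34492316-34527474), was lower in both lines. It held 409 and 590 tags in the untreated GFP line, and 106 and 145.5 with LPS. The values in the HA-Nur77 line were 517 and 676 untreated, and 193 and 319 with LPS. Untreated and LPS libraries did not overlap in either line. The fold was 0.255 (log2 -1.97 ± 0.32, adjusted p = 0.0113) and 0.421 (-1.25 ± 0.32, adjusted p = 0.0325), with the covered length falling from 9.03 and 13.1 kb to 3.46 and 5.59 kb in the GFP line and tags per kb of peak from 45.2 to 28.4. The GFP line call was lost without untreated replicate 2 or LPS replicate 1 of that line, and the other call without either untreated replicate or LPS replicate 1 of the HA-Nur77 line.

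Psap, the precursor of the saposins that help hydrolases reach lipids (chr10:60277628-60302600), held 1268 and 936 tags in the untreated HA-Nur77 line and 364 and 452 with LPS. It fell by 1.42 ± 0.33 on the log2 scale (adjusted p = 0.0235) there, and its change in the GFP line was -1.03 (adjusted p = 0.0892). The GFP line change of Psap was called with the replicate number as a block in limma (adjusted p = 0.0441). Glb1, beta-galactosidase, held 519 and 471 tags untreated and 340 and 332.5 with LPS in the HA-Nur77 line, a fall of 0.55 ± 0.14 (adjusted p = 0.0331). Its covered length went from 5.69 and 4.64 kb to 2.12 and 2.45 kb, so that tags per kb of peak changed by 0.43, in the opposite direction. The call of Psap ended without any 1 of the 4 libraries of the HA-Nur77 line. That of Glb1 ended without any 1 of these 4 or either untreated GFP library. Of the uncalled genes of this group, Grn, a glycoprotein precursor that supports lysosomal enzymes, had the highest level, with changes of 0.21 (adjusted p = 0.858) and 0.39 (adjusted p = 0.663), and Gusb, beta-glucuronidase, changed by 0.61 in the HA-Nur77 line (adjusted p = 0.0622).

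Of the 8 membrane genes none was called in the GFP line, where Cd68 changed by 0.63 (limma adjusted p = 0.0835, and 0.0406 with the replicate block). In the HA-Nur77 line Cd68 (chr11:69664213-69666170) held 5709 and 5561 tags untreated and 9525 and 9538 with LPS, which did not overlap. The fold was 1.69 (log2 0.76 ± 0.20, adjusted p = 0.0331). Counting only the share of each peak inside the gene it was 0.44 (adjusted p = 0.419), and the call ended without any 1 of the 4 libraries of that line. Gpnmb changed by 0.43 (adjusted p = 0.468) and Lamp2, a membrane protein needed for fusion with autophagosomes, by 0.82 (adjusted p = 0.0573) in the HA-Nur77 line.

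Of the 7 proton pump genes only Atp6v0d2 was called. It encodes a form of the d subunit that is enriched in macrophages and osteoclasts (chr4:19876838-19922566). It held 989 and 798 tags in the untreated GFP line, and 363 and 265 with LPS. The HA-Nur77 line had 773 and 737.5 untreated, and 357.5 and 366 with LPS. The LPS libraries of both lines lay below all 4 untreated libraries. The fold was 0.350 (log2 -1.52 ± 0.20, adjusted p = 0.0052) and 0.480 (-1.06 ± 0.20, adjusted p = 0.0110). The covered length fell in both lines, in the HA-Nur77 line from 6.17 and 9.21 kb to 2.15 and 3.64 kb, and tags per kb of peak changed by -0.44 (adjusted p = 0.498) and 0.18, so the fall in the sum was not seen per kb of peak in the HA-Nur77 line. Its GFP line call held in all 8 refits, and the other was lost without either untreated library of the HA-Nur77 line. Atp6v0c changed by -0.26 (adjusted p = 0.582) and 0.27 (adjusted p = 0.504), and Atp6v1h, a regulatory subunit, by 0.90 (adjusted p = 0.0564) and 0.74 (adjusted p = 0.0698).

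Tfeb held 1118 and 1526 Pol II tags in the untreated HA-Nur77 line and 265 and 483 with LPS, without overlap. The fold was 0.275 (log2 -1.87 ± 0.40, adjusted p = 0.0173), and tags per kb of peak fell as well, by 0.84 (adjusted p = 0.0266). In the GFP line it went from 687 and 1072 to 333 and 556 tags and was not called (-0.995, adjusted p = 0.150). With the replicate number as a block in the limma fit, that fall was called (adjusted p = 0.0065). The HA-Nur77 line call was lost without untreated replicate 2 or LPS replicate 1 of that line. Tfe3 changed by 0.59 (adjusted p = 0.0949) and 0.65 (adjusted p = 0.0522). Over all members and both lines, 29 and 26 members were not called, with changes of -1.03 to 0.90 and -1.47 to 0.82. The number of calls itself depended on single libraries: the 6 of the GFP line became 2 without its LPS replicate 1, and the 9 of the HA-Nur77 line became 4 and 1 without its untreated replicates 1 and 2, and 5 without its LPS replicate 1.

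After LPS more members, and more of all genes, were called for H3K27ac than for Pol II. In the GFP line 13 of 35 members were higher after LPS and 15 lower, and in the HA-Nur77 line 14 and 14. That is 80.0% called in each line, against 54.0% and 58.1% of all 16595 genes tested; the median log2 change was 0.03 and 0.04. Of the called genes, 12 were higher in both lines and 12 lower in both, and none was called in opposite directions. The share of all genes called alike in both lines is not given here. The 12 lower include Ctss, whose untreated peak also covered Ctsk. All these changes are relative to the median gene: without scaling, all genes shifted by -0.39 and -0.41, and the counts of higher and lower genes went from 4770 and 4185 to 1890 and 9167 in the GFP line, and from 4959 and 4679 to 1679 and 9513 in the HA-Nur77 line. For the members, the unscaled counts were 3 higher and 24 lower, and 1 and 23. Leaving out the 3 libraries with the local filter, which left 1 library in 3 of the 4 groups, gave 11 calls in the GFP line (Ctsb, Ctss, Ctsz, Lgmn, Hexa, Lipa, Psap, Laptm5, Atp6v0d2, Tfeb and Tfe3) and 16 in the HA-Nur77 line, where Npc2, Gusb, Tfe3, Ctsl, Atp6v1a, Gpnmb, Atp6v1h, Gla, Hexa, Cd63, Atp6ap1 and Ctsk lost theirs. Of the 28 calls in each line, 15 and 17 held in every refit without 1 library; without untreated replicate 1 of the GFP line its count was 18. Lost at least once were, in the GFP line, the calls of Atp6v1h, Mcoln1, Psap, Glb1, Lgmn, Ctsc, Ctsa, Atp6v0c, Gla, Atp6v1a, Ctsd, Gusb and Atp6v0d1, and in the HA-Nur77 line those of Atp6v1b2, Ctsc, Ctsl, Atp6v1a, Gpnmb, Atp6v1h, Gla, Hexa, Cd63, Atp6ap1 and Ctsk.

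**Figure D2:**
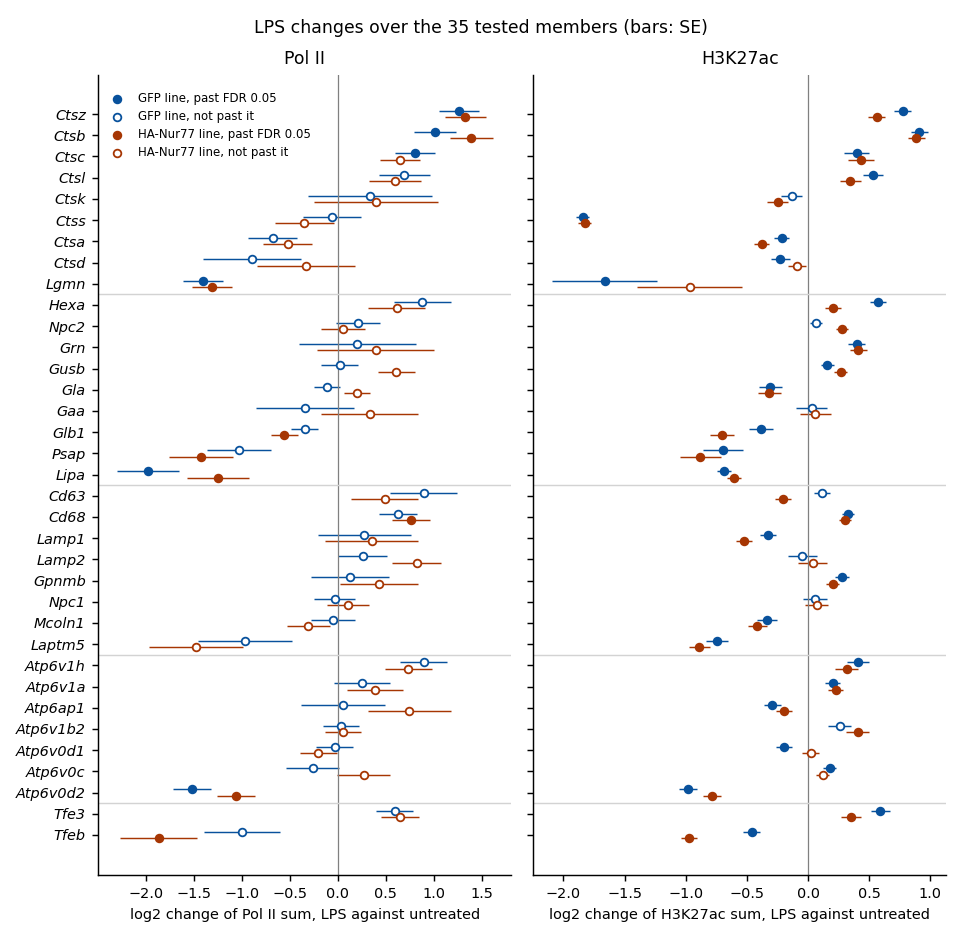
Change after LPS (log2 of scaled tags) of Pol II and of H3K27ac in each line over the 35 tested members, with bars of 1 SE; filled points passed an FDR of 0.05. Ctsb and Ctsz lie above 0 in both targets and both lines, Atp6v0d2, Lgmn and Lipa below 0, and Ctss is lowest in H3K27ac at -1.84 and -1.83. The untreated sum of Ctss includes a peak shared with Ctsk that was called as separate peaks with LPS.

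The cathepsins had both the highest and the lowest H3K27ac changes. Ctsb held 4135 and 3814 tags in the untreated GFP line and 7798 and 7135 with LPS. The sums of the HA-Nur77 line went from 3415 and 3618 to 6508 and 6484. LPS libraries were all above untreated ones, by 0.91 ± 0.07 (adjusted p = 7.66e-05) and 0.89 ± 0.07 (adjusted p = 8.05e-05), over 30.0 and 29.8 kb untreated and 29.6 and 29.7 kb with LPS in the GFP line. Ctsz rose from 967 and 959.5 to 1731 and 1566 tags in the GFP line, by 0.77 ± 0.07 (adjusted p = 0.000159), and by 0.56 ± 0.07 (adjusted p = 0.000577) in the HA-Nur77 line. Ctsl, cathepsin L, rose by 0.53 (adjusted p = 0.0019) and 0.35 (adjusted p = 0.0109), and Ctsc by 0.40 (adjusted p = 0.0162) and 0.43 (adjusted p = 0.0106). Unscaled, the change of Ctsl in the HA-Nur77 line was -0.08, while those of Ctsb, Ctsz and Ctsc stayed above 0.

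Ctss, cathepsin S, which trims the invariant chain in antigen presentation (chr3:95526786-95556405), had the lowest change of all members. Its sum went from 7136 and 7396 tags to 2029 and 2016 in the GFP line, and from 5147 and 4919 to 1394 and 1441 in the HA-Nur77 line (log2 -1.84 ± 0.05, adjusted p = 4e-06, and -1.83 ± 0.05, adjusted p = 3.02e-06). Its neighbour Ctsk, cathepsin K, a collagen-degrading protease (chr3:95499210-95509387), held nearly the same sums untreated, because the same peak covered both genes. That peak was 78.3 and 84.0 kb long in the untreated GFP line. It was 80.4 and 64.4 kb long in the untreated HA-Nur77 line. In all 4 LPS libraries it was called as separate peaks: the one over Ctsk ended 25.1 to 25.2 kb after the start of Ctsk, and the next began at 25.9 to 26.1 kb, before Ctss. The tags of the whole locus went from 7136 and 7396 to 8840 and 8362 in the GFP line, and from 5147 and 4919 to 5287 and 5998 in the HA-Nur77 line. These are scaled tags, relative to the median gene; unscaled, they went from 8263 and 8778 to 7816 and 7449, and from 5886 and 5575 to 4261 and 5305. With the tags of the merged region given to both genes, Ctss changed by 0.24 and 0.16, opposite in sign to its own sum, and with peaks weighted by the share inside the gene it changed by -0.40 and -0.54. The sum of Ctss after LPS leaves out the tags of the peak over Ctsk, which it held before. Ctsk changed by -0.13 in the GFP line (adjusted p = 0.221) and -0.25 in the HA-Nur77 line (adjusted p = 0.0424), and the latter was 0.51 by share and 0.16 over the merged region. In the GFP line it was called higher by share (0.61, adjusted p = 0.0038), over the merged region (0.24, adjusted p = 0.0014) and per kb of peak (0.42, adjusted p = 0.0331), and lower unscaled (-0.54, adjusted p = 0.0063).

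**Figure D3:**
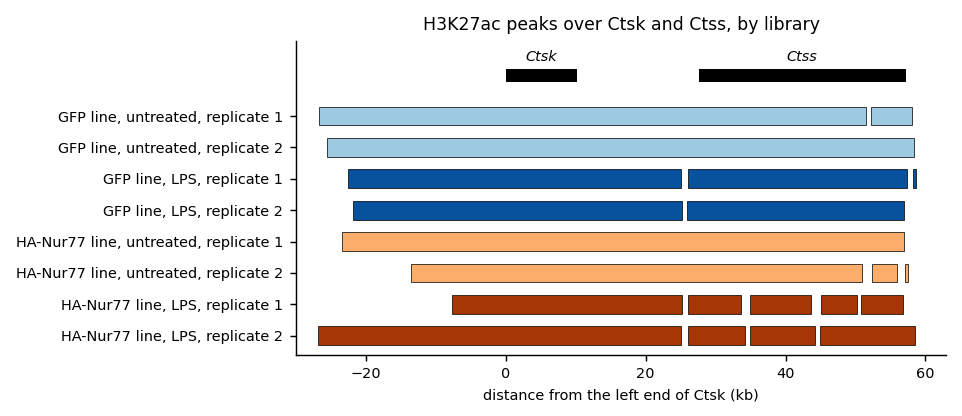
H3K27ac peaks called over Ctsk and Ctss in each of the 8 libraries, as bars along the distance in kb from the start of Ctsk, with the gene spans drawn to scale. A single peak of 64.4 to 84.0 kb reaches over both genes in each untreated library, and in all 4 LPS libraries a break lies between 25.1 and 26.1 kb.

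Lgmn H3K27ac fell in the GFP line from 4185 and 4217 tags to 1315 and 1338, by 1.66 ± 0.43 on the log2 scale (adjusted p = 0.0155). The untreated HA-Nur77 libraries held 2228 and 743 tags, a wider spread than in its other 3 groups, and the LPS libraries 674 and 643 (change -0.97 ± 0.43, adjusted p = 0.0921; without untreated replicate 2 of that line -1.76, adjusted p = 7.69e-05). Its longest peak went from 44.39 and 45.005 kb to 14.19 and 28.61 kb in the GFP line, the change was -1.08 by share and -0.51 over the merged region, and its peaks also touched Rin3. Over the merged region the 2 untreated HA-Nur77 libraries were close, at 2228 and 2241 tags, against 1634 and 1578 with LPS, and the fall of 0.49 was called (adjusted p = 1.81e-06), as was that of 0.29 by share (adjusted p = 0.0242). The GFP line call was lost without any 1 of the 4 libraries of that line. Smaller falls were called for Ctsa, by 0.21 (adjusted p = 0.0230) and 0.38 (adjusted p = 0.0019), and for Ctsd in the GFP line, by 0.23 (adjusted p = 0.0380); in the HA-Nur77 line Ctsd changed by -0.09 (adjusted p = 0.332).

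Of the other hydrolases and luminal proteins, 3 were higher and 4 lower in the GFP line, and 4 higher and 4 lower in the HA-Nur77 line. Hexa, the alpha subunit of hexosaminidase A, rose from 1770 and 1736 tags to 2548 and 2656 in the GFP line (0.57 ± 0.06, adjusted p = 0.000418) and by 0.21 ± 0.06 (adjusted p = 0.0290) in the HA-Nur77 line. Grn rose by 0.40 (adjusted p = 0.0029) and 0.41 (adjusted p = 0.0023), and Gusb by 0.16 (adjusted p = 0.0435) and 0.27 (adjusted p = 0.0047). Without scaling, Grn and Gusb were below 0 in both lines and Hexa in the HA-Nur77 line. Npc2, which hands cholesterol to the membrane protein Npc1, rose in the HA-Nur77 line by 0.27 (adjusted p = 0.0030; unscaled -0.16) and changed by 0.07 in the GFP line (adjusted p = 0.274). Lipa fell from 1237 and 1335 tags to 796 and 799 in the GFP line and from 1403 and 1333 to 882 and 916 in the HA-Nur77 line (-0.69 ± 0.06, adjusted p = 0.000127, and -0.61 ± 0.06, adjusted p = 0.000196). Every LPS library of Lipa was below every untreated one; without the peaks that lay over input regions its change was 1.79 and 2.15. Psap fell by 0.69 (adjusted p = 0.0108) and 0.88 (adjusted p = 0.0036), Glb1 by 0.39 (adjusted p = 0.0134) and 0.70 (adjusted p = 0.000913), and Gla by 0.31 (adjusted p = 0.0275) and 0.32 (adjusted p = 0.0227). Per kb of peak the changes of Gla were above 0, at 0.088 and 0.28, and by share it was 0.085 in the HA-Nur77 line. Gaa, the glycogen-degrading alpha-glucosidase, was not called in either line.

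Of the membrane proteins, Laptm5, a transmembrane protein of blood cells, fell the most, from 1550 and 1523 tags to 966 and 870 in the GFP line and from 1334 and 1397 to 795 and 681 in the HA-Nur77 line (-0.74 ± 0.09, adjusted p = 0.00049, and -0.89 ± 0.09, adjusted p = 0.000207). The LPS libraries did not overlap the untreated ones, and its peaks touched no other protein-coding gene. Lamp1, a main protein of the lysosomal membrane, fell by 0.33 (adjusted p = 0.0049) and 0.52 (adjusted p = 0.000595). Its covered length went from 14.7 and 15.9 kb to 6.43 and 6.48 kb in the GFP line, and per kb of peak it changed by 0.69 and 0.71, in the opposite direction. Mcoln1 fell by 0.34 (adjusted p = 0.0105) and 0.41 (adjusted p = 0.0040), and Cd63, a tetraspanin of late endosomes, by 0.20 in the HA-Nur77 line (adjusted p = 0.0290). Cd68 rose by 0.33 (adjusted p = 0.0013) and 0.30 (adjusted p = 0.0016) and Gpnmb by 0.28 (adjusted p = 0.0052) and 0.20 (adjusted p = 0.0188); unscaled, both were below 0 in both lines. Npc1 and Lamp2 were not called.

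In the proton pump, Atp6v0d2 again had the lowest change. It held 1152 and 1215 tags in the untreated GFP line and 638 and 560 with LPS. The HA-Nur77 line held 1088 and 1127 tags untreated, over 18.06 and 18.69 kb, and 656 and 629.5 with LPS, over 11.98 and 12.42 kb. It fell by 0.98 ± 0.07 (adjusted p = 7.64e-05) and 0.78 ± 0.07 (adjusted p = 0.000177), with no overlap, and both calls held in all 8 refits. The other d subunit, Atp6v0d1, fell by 0.20 in the GFP line (adjusted p = 0.0471), and Atp6ap1, an accessory subunit, by 0.29 (adjusted p = 0.0096) and 0.20 (adjusted p = 0.0412). Atp6v1h rose by 0.41 (adjusted p = 0.0089) and 0.32 (adjusted p = 0.0226), Atp6v1a by 0.20 (adjusted p = 0.0281) and 0.23 (adjusted p = 0.0163), Atp6v0c by 0.18 in the GFP line (adjusted p = 0.0259) and Atp6v1b2, a B subunit, by 0.41 in the HA-Nur77 line (adjusted p = 0.0091). Without scaling, those of Atp6v1a, Atp6v0c and Atp6v1b2 and that of Atp6v1h in the HA-Nur77 line were below 0.

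The transcription factors moved apart from each other. Tfeb H3K27ac (chr17:47737037-47792416) fell from 1885 and 1869 tags to 1448 and 1281 in the GFP line and from 2456 and 2555 to 1263 and 1289 in the HA-Nur77 line (-0.46 ± 0.07, adjusted p = 0.0012, and -0.97 ± 0.07, adjusted p = 5.12e-05). The HA-Nur77 line was above the GFP line untreated, and the LPS libraries of the lines overlapped. Tfe3 rose from 299 and 276 to 445 and 421 in the GFP line and from 267 and 271 to 363 and 323 in the HA-Nur77 line (0.59 ± 0.08, adjusted p = 0.000914, and 0.35 ± 0.08, adjusted p = 0.0083; unscaled -0.08 in the HA-Nur77 line). The 7 members without a call in the GFP line changed by -0.13 to 0.26, among them Cd63 at 0.12 (adjusted p = 0.165) and Atp6v1b2 at 0.26 (adjusted p = 0.0518). The 7 in the HA-Nur77 line changed by -0.97 to 0.12, among them Npc1 at 0.07 (adjusted p = 0.570), Gaa at 0.06 (adjusted p = 0.715) and Atp6v0c at 0.12 (adjusted p = 0.0903).

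Across the 35 members, the LPS changes of Pol II and of H3K27ac were correlated, with Pearson r = 0.740 and Spearman rho = 0.824 in the GFP line and 0.781 and 0.767 in the HA-Nur77 line. These are correlations over genes, which are not replicates, and neighbours can share a peak. The sign was the same in 28 of 35 and 29 of 35 members. Ctsb, Ctsc and Ctsz were higher and Lgmn, Lipa and Atp6v0d2 lower in both targets in the GFP line, and in the HA-Nur77 line Ctsb, Ctsz and Cd68 were higher and Lipa, Psap, Glb1, Atp6v0d2 and Tfeb lower in both. No member was called in opposite directions by the 2 targets. The LPS changes of the 2 lines, measured in separate libraries, had r = 0.886 for Pol II and 0.936 for H3K27ac. The same counts and correlations over all genes are not given here, so this agreement is not shown to be particular to these members.

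Between the lines, no member passed the test for Pol II, untreated or with LPS. The counts over all genes were also low, 0.172% (27 genes) untreated and 0.543% (85 genes) with LPS, and 3 and 5 members had an unadjusted p under 0.05. The member differences ran from -1.28 to 0.61 untreated and from -1.18 to 0.99 with LPS, with medians of -0.28 and -0.18. Lgmn had the lowest, at -1.28 ± 0.21 untreated (adjusted p = 0.129) and -1.18 ± 0.21 with LPS (adjusted p = 0.0812), and in both conditions its HA-Nur77 libraries were below its GFP libraries. With the replicate number as a block, 1 member (Lgmn, adjusted p = 0.0488) was called untreated and 2 with LPS (Lgmn, adjusted p = 0.0355, and Lipa at 0.99, adjusted p = 0.0353). Of the highest-level genes, Ctsd differed by -0.75 (adjusted p = 0.783) and -0.18 (adjusted p = 0.915), Cd68 by -0.28 (adjusted p = 0.792) and -0.15 (adjusted p = 0.789), and Grn by -0.53 (adjusted p = 0.897) and -0.34 (adjusted p = 0.854). Npc2 differed by -0.60 (adjusted p = 0.472) and -0.76 (adjusted p = 0.208), and Atp6v0c by -0.66 (adjusted p = 0.546) and -0.13 (adjusted p = 0.877). Lamp2 differed by -0.67 untreated (adjusted p = 0.479), Cd63 by -0.82 with LPS (adjusted p = 0.348) and Atp6v0d1 by -0.37 with LPS (adjusted p = 0.436). Tfeb differed by 0.61 (adjusted p = 0.773) and -0.27 (adjusted p = 0.820), and Tfe3 by -0.14 (adjusted p = 0.921) and -0.09 (adjusted p = 0.889).

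Between the lines more members, and more of all genes, were called for H3K27ac than for Pol II, the members mostly in 1 direction. Untreated, 1 of 35 members was higher in the HA-Nur77 line (Tfeb) and 10 were lower, 31.4% against 24.8% of all genes, with a median of -0.17. With LPS none was higher and 15 were lower, 42.9% against 32.3% of all genes, with a median of -0.22. Among all genes, 2157 were higher and 1965 lower untreated, and 2449 and 2910 with LPS; unscaled these became 1507 and 2058, and 1523 and 3327, and the members' counts 1 and 9, and 0 and 17. Per kb of peak, 1 of these 11 calls was kept (Npc2, -0.39, adjusted p = 0.0474) and none of the 15 with LPS, where Gusb alone was called and was higher (0.49, adjusted p = 0.0453). Without the 3 local-filter libraries 5 and 6 members were called; Atp6v1a, Tfeb, Ctsk, Cd68, Atp6v0c and Atp6v0d1 lost the untreated call, and Ctsc, Atp6v1a, Hexa, Lamp1, Ctsl, Ctsa, Atp6v0c, Cd68, Tfe3 and Laptm5 that with LPS, where Lgmn was called in addition. The untreated count of 11 became 7 without either untreated GFP library. Each line is a separate stable line, so the HA-Nur77 protein and other differences between the lines cannot be told apart.

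**Figure D4:**
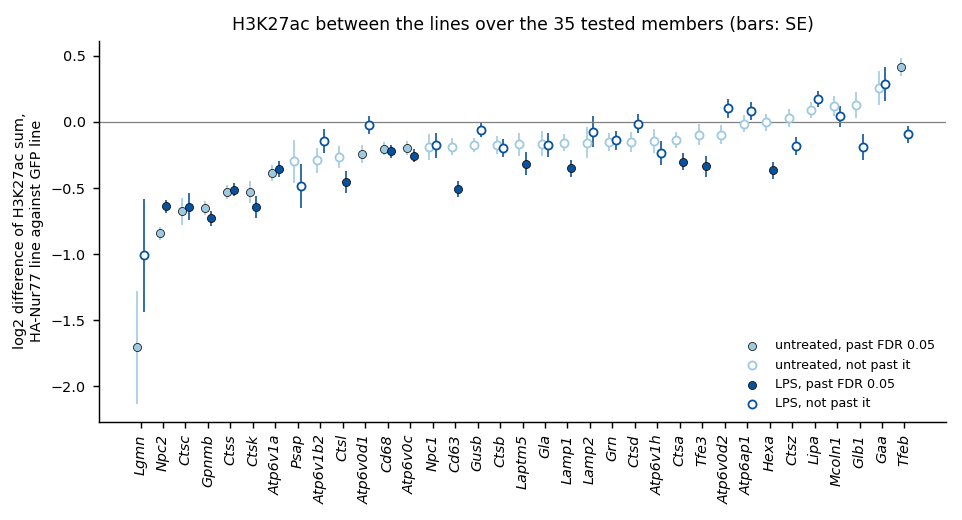
H3K27ac in the HA-Nur77 line against the GFP line (log2 difference of scaled tags, bars of 1 SE) for the 35 tested members, untreated and with LPS, ordered by the untreated difference; filled points passed an FDR of 0.05. The 8 genes filled in both conditions, Npc2, Ctsc, Gpnmb, Ctss, Ctsk, Atp6v1a, Cd68 and Atp6v0c, lie below 0, and Tfeb is filled above 0 only untreated, at 0.42.

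Npc2 (chr12:84754559-84773112) held 1553 and 1572 tags in the untreated GFP line and 853 and 890 in the untreated HA-Nur77 line. With LPS it held 1630 and 1646 against 1074 and 1033. The lines did not overlap, and the difference was -0.84 ± 0.05 untreated (adjusted p = 0.000126) and -0.64 ± 0.05 with LPS (adjusted p = 0.000252). Gpnmb (chr6:49036518-49058182) held 5643 and 5460 tags against 3513 and 3555 untreated, and 6887 and 6592 against 3926 and 4204 with LPS. It was lower by -0.65 ± 0.06 (adjusted p = 0.000434) and -0.73 ± 0.06 (adjusted p = 0.000244). Both held in all 8 refits.

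Ctsc held 235 and 278 tags in the untreated GFP line and 163 and 156 in the HA-Nur77 line. Its difference was -0.68 ± 0.10 untreated (adjusted p = 0.0042) and -0.64 ± 0.10 with LPS (adjusted p = 0.0044); per kb of peak the untreated one was 0.35. Ctss and Ctsk, which share a peak untreated, were lower by -0.53 each untreated (adjusted p = 0.000633 and 0.0052), and by -0.51 (adjusted p = 0.000591) and -0.64 (adjusted p = 0.0021) with LPS. Lgmn was lower untreated by -1.71 ± 0.43 (adjusted p = 0.0283), a call that ended without either untreated GFP library, and with LPS 674 and 643 tags against 1315 and 1338 were not called (-1.01); without either untreated HA-Nur77 library they were (adjusted p = 0.000272 and 0.000274). Over the merged region Lgmn was lower by -0.91 untreated (adjusted p = 7.67e-08) and by -0.89 with LPS (adjusted p = 5.88e-08), and by share by -1.76 (adjusted p = 1.35e-05) and -0.97 (adjusted p = 0.00014). Ctsl (-0.45, adjusted p = 0.0073) and Ctsa (-0.30, adjusted p = 0.0107) were lower with LPS.

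Of the pump genes, Atp6v1a was lower by -0.38 ± 0.06 untreated (adjusted p = 0.0046) and -0.36 ± 0.06 with LPS (adjusted p = 0.0051), Atp6v0c by -0.20 (adjusted p = 0.0352) and -0.25 (adjusted p = 0.0110), and Atp6v0d1 by -0.24 untreated (adjusted p = 0.0422). Of the membrane genes, Cd68 was lower by -0.20 (adjusted p = 0.0220) and -0.22 (adjusted p = 0.0122), and untreated it was above 0 per kb of peak (0.18) and by share (0.11). With LPS, Cd63 (-0.51, adjusted p = 0.0016), Lamp1 (-0.35, adjusted p = 0.0073) and Laptm5 (-0.32, adjusted p = 0.0310) were lower as well, and so were Hexa (-0.37, adjusted p = 0.0058) and Tfe3 (-0.34, adjusted p = 0.0180). Tfeb was higher untreated, by 0.42 ± 0.07 (adjusted p = 0.0049), and differed by -0.09 with LPS (adjusted p = 0.321). Leaving out 1 library ended the untreated calls of Cd68 and Atp6v0d1 (any untreated library) and Atp6v0c (any untreated library, or LPS replicate 1 of the HA-Nur77 line). With LPS, leaving out replicate 1 of the GFP line ended those of Ctsa, Atp6v0c, Cd68, Tfe3 and Laptm5, LPS replicate 1 of the HA-Nur77 line those of Atp6v0c and Cd68, its LPS replicate 2 those of Ctsa, Tfe3 and Laptm5, and any untreated library that of Laptm5. The uncalled members differed by -0.30 to 0.26 untreated and by -1.01 to 0.29 with LPS. Ctsb, with the highest level among them, differed by -0.18 (adjusted p = 0.107) and -0.20 (adjusted p = 0.0638), and Grn by -0.15 (adjusted p = 0.157) and -0.14 (adjusted p = 0.166). Atp6v0d2 differed by -0.10 (adjusted p = 0.395) and 0.10 (adjusted p = 0.323). Nearest to the threshold untreated were Gusb (-0.18, adjusted p = 0.0508), Ctsl (-0.27, adjusted p = 0.0585), Atp6v1b2 (-0.29, adjusted p = 0.0654), Cd63 (-0.19, adjusted p = 0.0748) and Tfe3 (-0.10, adjusted p = 0.426) in their groups, with Laptm5 at -0.17 (adjusted p = 0.205). With LPS they were Psap (-0.49, adjusted p = 0.0618), Atp6v1h (-0.24, adjusted p = 0.0926) and Npc1 (-0.18, adjusted p = 0.209).

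The test of whether the LPS response differed between the lines called no member for Pol II (0.0767% of all genes, 12, were called, and 0 members had an unadjusted p under 0.05) and none for H3K27ac (1.0% of all genes, 166, and 4 members with an unadjusted p under 0.05). For Pol II the member differences in response ran from -0.87 (Tfeb) to 0.72, with Ctsd at 0.57, Cd68 at 0.13, Grn at 0.19, Atp6v0c at 0.53 and Tfe3 at 0.06, each at an adjusted p of 1.00. So the genes called in only 1 line were not shown to respond differently. For H3K27ac the nearest was Tfeb, whose fall was greater in the HA-Nur77 line by 0.51 ± 0.09 (interaction -0.51, 95% interval -0.73 to -0.29, adjusted p = 0.0732). It passed over the merged region (adjusted p = 0.0121), when genes with a peak in at least 2 libraries were tested (adjusted p = 0.0473), and without LPS replicate 2 of the GFP line (adjusted p = 0.0267). The others with the smallest adjusted p in their groups were Hexa (-0.36, adjusted p = 0.145), Cd63 (-0.32, adjusted p = 0.185), Atp6v0d1 (0.22, adjusted p = 0.366) and Ctsz (-0.21, adjusted p = 0.377). The high-level genes Ctsb, Cd68, Grn and Atp6v0c lay at -0.02, -0.02, 0.01 and -0.06. Without untreated replicate 1 of the HA-Nur77 line, Lgmn passed instead, at 1.49 (adjusted p = 0.0019), and also without the 3 local-filter libraries (1.49, adjusted p = 0.0201), but over the merged region its difference in response was 0.02 (adjusted p = 0.936) and by share 0.79 (adjusted p = 0.0614).

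HA-Nur77 signal was found over 35 of 36 members in at least 1 library, and the 6 libraries had a peak over 23 to 32 of them each. Peaks were joined across libraries into 85 regions, of which 17 were called in all 6 libraries and 18 in only 1. Of the 85, 75 had H3K27ac in all 8 libraries and 2 in none, and 13 lay over an input region. Only 72 belonged to a gene with a listed start, and 19 of these lay over a promoter window. The region with the highest mean was in Ctsb at chr14:63128595-63129685, with 157 normalized tags and a peak in 5 libraries. The next was in Atp6v0d2 at chr4:19894785-19895801 (130, all 6), followed by Cd68 at chr11:69665636-69666652 (98.6, 4 libraries), Hexa at chr9:59544412-59545462 (86.6) and Atp6v1a at chr16:44119438-44120454 (84.3). The other 5 of the top 10 were a region of Ctsb at chr14:63131998-63132874 (73.5, over an input region), Ctsz at chr2:174437290-174438306 (69.5), Ctsk at chr3:95502749-95503765 (68.1, over an input region), Tfeb at chr17:47768320-47769358 (61.3) and Laptm5 at chr4:130913635-130914651 (60.0). Without both replicate 3 libraries these means were 209 and 43.3 for the 2 regions of Ctsb, 132 for Atp6v0d2, 109 for Cd68, 95.6 for Hexa, 96.0 for Atp6v1a, 63.2 for Ctsz, 63.3 for Ctsk, 66.5 for Tfeb and 62.6 for Laptm5. In the untreated libraries alone, the highest region of Ctsb had 160 ± 63.09 (SD, n = 3) and that of Atp6v0d2 157.7 ± 20.1. Their order is therefore not resolved. The region of Ctsk had 107.3 ± 7.099 untreated and 28.83 ± 25.05 with LPS. Its LPS values were 45.3, 0 and 41.2. LPS replicate 2 instead had a peak of 59.6 tags at chr3:95504449-95505275, a separate region called in that library alone.

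**Figure D5:**
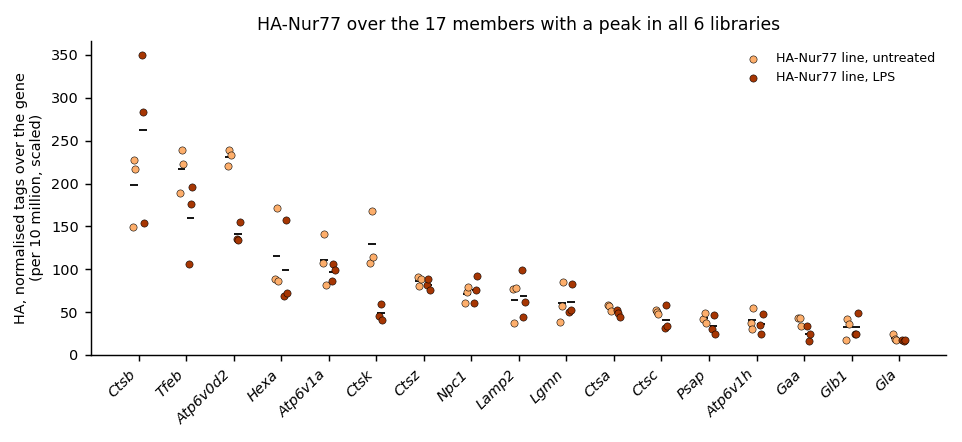
Scaled normalized HA tags (linear axis from 0) over the 17 members with a peak in all 6 libraries, untreated and with LPS, 1 point per library and a bar at each group mean. Over Ctsk, Atp6v0d2 and Gaa the 3 LPS points all lie below the 3 untreated ones. Ctsk lies at 41.2 to 59.6 against 107.8 to 168.0 and Atp6v0d2 at 134 to 156 against 220 to 239. Gaa lies at 16.27 to 33.65 against 34.07 to 43.65. Of these 3 genes only Ctsk was called by limma without the replicate block. The share of all tested genes that separate in this way is not given here. The separation is therefore not shown to be particular to these genes.

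After LPS, 1 of 17 tested members was called for HA, and it was lower; the share was 5.9% against 2.41% of all 6896 genes tested, and the median was -0.19 against -0.01 for all genes. Unscaled, no member was called, and the 122 higher and 44 lower genes became 13 and 0. With the replicate number as a block, Ctsk and Atp6v0d2 were called, as were 1509 of all 6896 genes. That is a smaller share of the members than of all genes. The gene called without the block was Ctsk. It held 107.8, 168.0 and 114.1 tags untreated and 45.3, 59.6 and 41.2 with LPS, which did not overlap. It fell by 1.39 ± 0.30 on the log2 scale (adjusted p = 0.0435; with the replicate number as a block, adjusted p = 0.0027). All its HA peaks lay over regions that were also called in input, and untreated replicate 2 included a second peak at the edge of the flank. Without the flank the change was -1.15 (adjusted p = 0.0668), over the merged region -0.79 (adjusted p = 0.267), and per kb of peak -0.96 (adjusted p = 0.120). The call was lost when any 1 of the 6 libraries was left out (-1.53 to -1.20), and without both replicate 3 libraries (adjusted p = 0.243).

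Atp6v0d2, the pump gene whose Pol II and H3K27ac fell, held 220, 239 and 233 HA tags untreated and 135, 134 and 156 with LPS, without overlap. Its change of -0.71 ± 0.21 did not pass (adjusted p = 0.110), and it did with the replicate block (adjusted p = 0.0094; adjusted p = 0.0256 with the block and without both replicate 3 libraries). At its single strongest region the 6 values were 175, 163 and 135.5 untreated and 111, 78.4 and 119 with LPS. Ctsb went from 149, 228 and 217 to 350, 283 and 154, with groups that overlapped (0.35, adjusted p = 0.621; with the block 0.383). Tfeb went from 189, 239 and 222 to 106, 176 and 196 (-0.48, adjusted p = 0.386; with the block 0.0616), Hexa from 88.8, 172 and 86.1 to 68.4, 157 and 71.7 (-0.25, adjusted p = 0.791; with the block 0.306) and Npc1 changed by 0.09 (adjusted p = 0.908; with the block 0.757). The other uncalled members lay between -0.74 (Gaa, adjusted p = 0.241; with the block 0.0694) and 0.35.

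Of the 17 regions in all 6 libraries, 16 had H3K27ac in all 8 libraries and 0 lay over an input region. Those of Atp6v0d2, Npc1, Atp6v1h and Atp6v1b2 had no listed start and could not be scored for promoters. Of the others, 6 lay over a promoter window, those of Ctsa, Ctsc, Psap, Tfeb, Glb1 and Gaa. Of these, Ctsa, Gaa and Glb1 hold an E-box. The windows of Ctsa, with 2 E-boxes, and of Gaa, with a nuclear receptor half-site as well, are printed; capitals mark CACGTG in both and, in Gaa, TGACCT, the reverse of AGGTCA.
Ctsa: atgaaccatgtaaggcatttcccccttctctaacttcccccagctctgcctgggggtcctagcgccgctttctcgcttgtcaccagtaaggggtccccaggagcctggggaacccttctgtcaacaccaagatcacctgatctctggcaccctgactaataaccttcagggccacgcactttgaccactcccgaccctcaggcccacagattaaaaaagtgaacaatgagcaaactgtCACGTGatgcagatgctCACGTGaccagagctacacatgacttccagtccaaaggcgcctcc
Gaa: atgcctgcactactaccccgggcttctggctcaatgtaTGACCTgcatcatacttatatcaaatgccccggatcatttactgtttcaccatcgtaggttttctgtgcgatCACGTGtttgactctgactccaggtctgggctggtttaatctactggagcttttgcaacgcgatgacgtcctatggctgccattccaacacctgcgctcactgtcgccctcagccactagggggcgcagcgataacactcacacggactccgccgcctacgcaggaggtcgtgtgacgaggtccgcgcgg

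The Ctsa window lies at chr2:164833523-164833822 (plus strand, RefSeq, GRCm38.p6), with CACGTG at -12 to -7 and at 5 to 10 from the listed start. The HA region over it, chr2:164833035-164834101, held 58.8, 56.7 and 51.7 normalized tags untreated and 53.0, 48.6 and 44.5 with LPS. Each LPS value was below the untreated value of the same number, and the ranges overlapped. The Gaa window lies at chr11:119267713-119268012 (plus strand), with TGACCT at -212 to -207 and CACGTG at -140 to -135. Its HA region, chr11:119267367-119268383, held 26.3, 25.8 and 18.3 tags untreated and 19.9, 16.3 and 24.1 with LPS, lower in replicates 1 and 2 and higher in replicate 3. These single regions were not tested. A match within these letters shows no binding site.

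A further 63 lysosomal genes outside the list (other hydrolases, membrane and trafficking proteins, pump subunits and regulators) were also summed. Neighbours that share their peaks, and refits without 1 library, are not given here for these genes. Their changes can therefore include tags of another gene. After LPS, Pol II was higher over 7 and lower over 3 of 60 tested in the GFP line (16.7%). In the HA-Nur77 line it was higher over 12 and lower over 6 (30.0%). These shares were near the 14.9% and 26.3% of all genes. Unscaled, Pol II was higher over 5 and lower over 4 in the GFP line, and over 7 and 11 in the HA-Nur77 line. H3K27ac was higher over 21 and lower over 11 of 59 in the GFP line (54.2%), and over 24 and 13 in the HA-Nur77 line (62.7%), near the 54.0% and 58.1% of all genes; unscaled, 12 were higher and 33 lower, and 8 and 33. Sgsh, a sulfatase of heparan sulfate breakdown, lost Pol II. Its log2 changes were -3.84 ± 0.39 (limma adjusted p = 0.0020) in the GFP line and -3.96 (adjusted p = 0.0013) in the HA-Nur77 line. Cln3, a membrane protein mutated in Batten disease, gained Pol II by 2.32 (adjusted p = 0.0018) and 2.66 (adjusted p = 0.00085). Manba, beta-mannosidase, gained Pol II by 1.78 in the GFP line (adjusted p = 0.0031), and H3K27ac by 1.25 (adjusted p = 1.4e-05) and 1.18 (adjusted p = 1.6e-05). M6pr, the receptor that delivers hydrolases to lysosomes, gained H3K27ac by 1.09 (adjusted p = 1.4e-05) and 1.14 (adjusted p = 1.3e-05). Sgsh lost H3K27ac, with changes of -1.86 (adjusted p = 1.9e-05) and -1.56 (adjusted p = 3.7e-05). Atp6v1g1, a pump subunit, gained Pol II by 2.09 in the HA-Nur77 line (adjusted p = 0.0017) against -0.05 in the GFP line; the difference of 2.13 did not pass (adjusted p = 0.155). Of the 11 other pump subunits, H3K27ac was higher over 6 and 7 and lower over 0 in the 2 lines; unscaled, it was higher over 2 and 2 and lower over 5 and 3. For HA, 0 of 30 tested were called by limma, with 5 at an unadjusted p under 0.05, and between the lines H3K27ac was higher over 6 and lower over 13 untreated (32.2%, against 24.8% of all genes) and over 5 and 17 with LPS (37.3%, against 32.3%). Unscaled, H3K27ac between the lines was higher over 3 and lower over 14 untreated, and over 4 and 22 with LPS. The promoters of these other lysosomal genes held TCACGTGA in 10.0% of 60 entries.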

How the data were processed

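The submitters' processing notes name the build mm10, the aligner HISAT2 (version 2.1.0) and the peak software HOMER. Per the file headers, findPeaks was run on each library alone, with fixed-width peaks for HA and joined regions for Pol II and H3K27ac, and with no input in the command. The deposited signal is the authors' normalized tag count, in tags per 10 M mapped tags; it is no whole count, as the values are multiples of a fraction of a tag. Input regions came from 4 libraries, 1 per line and treatment.

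For every RefSeq gene of GRCm38.p6 the tags of peaks touching its span plus 1000 bp were summed, scaled by trimmed means of M-values (30% of ratios and 5% of levels trimmed at each end) over genes with a peak in every library of the target, and tested on log2(sum + pseudocount 1), a scale that understates changes of low genes. limma 3.58.1 (R 4.3.3), with a trend, fitted group means per target over all its libraries, with Benjamini-Hochberg adjustment over all genes tested and an FDR of 0.05. It had been tested on simulated data. Tags per kb of peak, the covered length, tags weighted by the share of a peak inside the gene, and merged regions were computed as alternatives, along with a pseudocount of 10, no flank, no scaling, peaks in at least 2 libraries (3 for HA), no peaks over input, a replicate block, and each library left out. The share-weighted sums, the merged regions and the blocked HA fit without replicate 3 were chosen after seeing the data.

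Same-numbered HA libraries deviated together (r of 0.383 to 0.651 for the 3 pairs, against -0.514 to 0.0554 for other pairs), so the numbers were taken to pair them, from the data and not from the labels, and the blocked value is given beside HA results. Replicates may be technical, and p-values then measure only the spread between these libraries. The members and lists were chosen with earlier results of these data known. Each member called in a comparison is named there; of the uncalled, each role group gives the member with the highest level per kb and that with the smallest adjusted p, and the 10 HA regions of highest mean are named. Not every gene of the cell type marker list is reported here.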

Additional observations from a re-analysis of the deposited data

How the results depend on the processing

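Counts of members called that moved by more than 1.5 times were these. For HA (1 member) 2 were called with the replicate block and 2 with a peak needed in at least 3 libraries, 0 unscaled, without the flank, per kb of peak, by share, over merged regions, without input peaks and without both replicate 3 libraries, 0 to 0 when 1 library was left out, and 3 with the block and without replicate 3. For Pol II in the GFP line (6) they were 12 with the block, 1 per kb of peak, 2 without input peaks and 2 to 6 without 1 library; in the HA-Nur77 line (9) 16 with the block, 2 per kb of peak, 15 over merged regions and 1 to 11 without 1 library. Between the lines for Pol II (0 and 0) the block gave 1 untreated and 2 with LPS. For H3K27ac the GFP line (28) had 15 without input peaks, 11 without the 3 local-filter libraries and 18 to 25 without 1 library; the HA-Nur77 line (28) had 14 per kb of peak, 15 without input peaks, 16 without those 3 and 20 to 28 without 1 library. The line difference untreated (11) had 1 per kb of peak, 3 without input peaks, 18 over merged regions, 5 without the 3 libraries and 7 to 13 without 1 library; with LPS (15) it had 1 per kb of peak (none of the 15 kept), 7 without input peaks, 6 without the 3 libraries and 11 to 18. The H3K27ac interaction (0) had 1 with a peak needed in 2 libraries, 1 over merged regions, 1 without the 3 libraries, and 0 to 1 without 1 library. Where an arm kept 1 library, it was assumed to vary like the other groups.

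Signs reversed as follows, on the log2 scale. Over merged regions: Ctss 0.24 (GFP line) and 0.16 (HA-Nur77 line), Ctsk 0.16 (HA-Nur77 line). Without the flank: Npc2 -0.19. Unscaled, in H3K27ac of the GFP line: Cd68 -0.076, Grn -0.005, Gpnmb -0.12, Atp6v0c -0.22, Atp6v1a -0.20 and Gusb -0.25; of the HA-Nur77 line: Cd68 -0.13, Grn -0.022, Npc2 -0.16, Gusb -0.16, Tfe3 -0.079, Atp6v1b2 -0.023, Ctsl -0.084, Atp6v1a -0.20, Gpnmb -0.23, Atp6v1h -0.11 and Hexa -0.23. Per kb of peak, in Pol II: Ctsc -0.018 (GFP line), Atp6v0d2 0.18 and Glb1 0.43 (HA-Nur77 line); in H3K27ac of the GFP line: Lamp1 0.69, Gla 0.088, Gusb -0.41 and Atp6v0d1 0.17; of the HA-Nur77 line: Lamp1 0.71, Atp6v1b2 -0.20, Ctsc -0.019, Gla 0.28, Cd63 0.31 and Ctsk 0.33; between lines: Ctsc 0.35, Cd68 0.18 and Atp6v0d1 0.084 untreated, Ctsl 0.10 and Ctsa 0.034 with LPS. By share: Lamp1 0.25 and Gusb -0.16 (GFP line), Gla 0.085 and Ctsk 0.51 (HA-Nur77 line), Cd68 0.11 (line difference, untreated). Without input peaks: Lipa 1.79 and 2.15, Hexa 0.19 (line difference, LPS). The cause was not tested. A pseudocount of 10 kept all 98 calls of members, and the block kept 91 and lost 7; libraries of the same number had correlations of 0.202 to 0.453 (Pol II, which shares only 2 numbers) or -0.0237 to 0.117 (H3K27ac), so these numbers were not taken to pair them.

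Over all genes, HA calls (166) were 1509 with the block, 13 unscaled, 791 with peaks in 3 libraries, 6 without replicate 3, 927 with the block and without replicate 3, and 0 to 82 without 1 library (0 without LPS replicate 1). Pol II GFP line calls (2340) were 4243 with the block, 485 per kb of peak, and 1000, 994, 892 and 1521 without untreated replicates 1 and 2 and LPS replicates 1 and 2 of that line. In the HA-Nur77 line (4114) they were 6286, 983, and 1983, 1618 and 2644 without untreated replicates 1 and 2 and LPS replicate 2. The Pol II line differences were 27 untreated (block 98, 2 libraries 109, per kb 14, share 15, merged 14, left-out 13 to 41) and 85 with LPS (block 378, 2 libraries 236, per kb 13, merged 144, left-out 22 to 52), and the interaction 12 (2 libraries 37, per kb 2, share 0, merged 0, left-out 4 to 28). For H3K27ac, 8955 became 5926 per kb and 3511 without the 3 libraries, 9638 became 6341 and 6153, 4122 became 801 and 959 (left-out from 2314), 5359 became 1014 and 1760, and the interaction's 166 became 105 with the block, 106 unscaled, 738 with 2 libraries, 7 per kb, 30 by share, 377 merged and 106 without untreated replicate 1 of the HA-Nur77 line. The all-gene split of the Pol II line differences unscaled was 23 higher and 9 lower untreated and 29 and 40 with LPS, against 16 and 11, and 46 and 39. The interactions' splits were 4 and 8 (unscaled 2 and 11) for Pol II and 40 and 126 (unscaled 33 and 73) for H3K27ac. The planned edgeR test on recovered reads was not run, because the deposited values are multiples of a fraction of a tag and do not give whole reads. A sum over called peaks has no value below the calling limit, so a gene at 0 has no called peak.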
